A study of Homo sapiens with 6 samples.

Results

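The genes described here are 46 listed genes of DNA replication, chosen by symbol from the table of read counts and covering the licensing of origins, the replicative helicase, the polymerases with their clamp, the supply of nucleotides and the copying of DNA methylation. All 46 were among the 29476 genes in the table, and all 46 passed the filter on low counts that left 15615 genes for testing. The cells were A549, an established line from a human lung adenocarcinoma, transfected with small interfering RNA by lipofection and with no other treatment named for both groups. The siCtrl group (3 libraries) received a control siRNA, although its genotype label reads control plasmid, and the siDDX17 group (3 libraries) received an siRNA against DDX17, a DEAD-box RNA helicase. The study used the comparison to ask which transcripts depend on DDX17 in lung adenocarcinoma cells. A harvest at 48 h after transfection is stated for RT-qPCR, and the harvest time of the sequenced RNA is not given in the sources used here. The libraries came from 1 cell line and are described as biological replicates, and the titles do not say whether each was a separate transfection. SD values below are the spread between these libraries. Standard errors come from the fitted model and are not that spread itself.

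DNA replication starts from origins that are loaded with helicase before S phase. The origin recognition complex, CDC6 and CDT1 place the ring of MCM2 to MCM7 on DNA, a step called licensing. Kinases then help CDC45 and the GINS complex to join the ring, which makes the active helicase called CMG (CDC45, MCM, GINS). At the fork, primase with polymerase alpha lays down primers, the RFC complexes load the PCNA clamp, and polymerases epsilon and delta copy the strands. Many of these genes are classic targets of E2F, the transcription factor family that opens S phase. In a bulk culture of growing cells, a smaller share of cells in S phase and less transcript in each cell cannot be told apart.

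Promoter sequences are shown first, since the E2F site is what many of these genes are known to share. They were taken from RefSeq on GRCh38.p14, as the 300 bases that run from 250 before to 50 after the annotated start, and were found for 40 of the 46 genes. Lower case gives the gene's own strand from 5′ to 3′, and capitals mark 2 kinds of motif on either strand: the E2F words TTTCCCGC, TTTCGCGC, TTTGCCGC and TTTGGCGC, and the box CCAAT. CDC6 (chr17:40287629-40287928, + strand) and MCM7 (chr7:100101348-100101647, - strand) are shown because they carry both motifs and were lower in siDDX17. CDC45 (chr22:19479670-19479969, + strand) was lower too but held none of the E2F words as spelled here. Its sequence holds tttggcgg, which differs from TTTGGCGC in the last base and was not counted, as in CDC6. GINS3 (chr16:58392221-58392520, + strand) held an E2F word and was the 1 gene of the list that was higher in siDDX17.
CDC6: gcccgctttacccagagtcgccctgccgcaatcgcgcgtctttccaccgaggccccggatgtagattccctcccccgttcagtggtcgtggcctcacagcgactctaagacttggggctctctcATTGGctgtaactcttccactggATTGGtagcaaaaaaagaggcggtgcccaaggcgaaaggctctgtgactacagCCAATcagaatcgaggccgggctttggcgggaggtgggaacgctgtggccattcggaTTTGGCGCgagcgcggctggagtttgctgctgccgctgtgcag
MCM7: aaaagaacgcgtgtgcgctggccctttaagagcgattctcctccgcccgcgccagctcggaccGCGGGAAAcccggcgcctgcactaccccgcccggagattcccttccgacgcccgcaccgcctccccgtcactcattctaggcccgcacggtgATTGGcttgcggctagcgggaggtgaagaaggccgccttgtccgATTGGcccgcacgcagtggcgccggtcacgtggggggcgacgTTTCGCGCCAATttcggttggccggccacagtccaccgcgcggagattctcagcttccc
CDC45: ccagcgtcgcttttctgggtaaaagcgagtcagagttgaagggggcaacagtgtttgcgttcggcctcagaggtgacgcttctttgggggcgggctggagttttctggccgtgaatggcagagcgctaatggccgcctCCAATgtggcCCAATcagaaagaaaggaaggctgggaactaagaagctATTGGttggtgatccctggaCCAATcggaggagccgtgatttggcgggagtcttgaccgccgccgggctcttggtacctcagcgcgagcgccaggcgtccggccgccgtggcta
GINS3: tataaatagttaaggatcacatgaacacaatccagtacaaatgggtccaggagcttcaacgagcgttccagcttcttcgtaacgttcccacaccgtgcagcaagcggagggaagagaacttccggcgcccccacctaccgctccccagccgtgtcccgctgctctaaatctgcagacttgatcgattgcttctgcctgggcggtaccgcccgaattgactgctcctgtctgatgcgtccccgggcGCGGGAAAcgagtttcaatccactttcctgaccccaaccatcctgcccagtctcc
Counting 1 at the annotated start on which the window was built, the E2F word began at position 8 in CDC6, at -187 and -9 in MCM7, and at -5 in GINS3. That start need not be the first base of the gene, which for GINS3 lies upstream at 58295080. The second E2F word of MCM7 shared its last base with a CCAAT box. CDC45 had 4 CCAAT boxes, at -112, -102, -64 and -44.

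An E2F word was present in 19 of the 40 promoters (47.5%), against 3.325% of the 27305 promoters of that length in the RefSeq table and 5.186% of the 10296 that belong to tested genes. The same words without their first T were found in 28 of 40 (70%), against 13.05% of all promoters and 20.53% of those of tested genes. CCAAT was found in 22 of 40 (55%), against 35.7% and 36.37%. TTTGAA, the core of the cell cycle homology region of many mitosis genes, was found in 2 of 40 (5%), against 15.43% and 9.392%. These shares describe letters in a window and do not show binding. The promoters compared were not matched for base composition, which also affects how often a word occurs. Within the list, an E2F word stood in 14 of the 26 promoters of genes called lower and in 5 of the 14 others, a difference that was not tested. Over the tested genes with a promoter, the median log2 fold change was -0.07 for those with an E2F word and 0.0047 for those without.

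Each library held 30658136 to 39182371 counted reads. The replication genes were well covered, with a mean count per library from 263 (CDC7) to 8149 (MCM7), a median of 1204, and no single count below 221. Values are given as CPM, read counts scaled to a common library size, and comparisons between genes use FPKM, which also divides by transcript length. DDX17 itself was reduced to 32.1, 30.8 and 30.4 CPM in the siDDX17 libraries from 177, 184 and 206 CPM in the siCtrl libraries, a log2 fold change of -2.60 (standard error 0.0685). DDX5, its close paralog, had a log2 fold change of -0.11 (adjusted p = 0.142 by the quasi-likelihood test of edgeR, used for every adjusted p here), and of 0.014 when scaled by library size only. Of the 5 epithelial markers, CDH1, KRT8, KRT18 and KRT19 were over 1 CPM in every library. EPCAM was at 0.738, 1.08 and 0.827 CPM in siCtrl and rose to 2.28, 2.22 and 2.21 CPM in siDDX17 (log2 fold change 1.35, adjusted p = 7.68e-05). The lung markers NKX2-1, SFTPB and SFTPC were near 0, but other members of that list were not. ABCA3 was at 19.8, 23.8 and 21.0 CPM in siCtrl and rose to 24.4, 25.7 and 25.2 CPM in siDDX17 (adjusted p = 0.0316). NAPSA was at 0.620, 0.524 and 0.641 CPM and rose to 1.17, 0.878 and 1.30 CPM (log2 fold change 0.895, adjusted p = 0.00958). The summed epithelial level was 5534 to 6096 CPM in siCtrl and 4834 to 5266 CPM in siDDX17. For the remaining lists, markers over 1 CPM were counted by their mean over all libraries. The lung list had 1 of 5 measured markers over 1 CPM (ABCA3) and summed to 20.9 to 24.9 CPM and 25.9 to 27.2 CPM. The blood cell list had 1 of 2 (CD14), with sums of 20.8 to 28.3 CPM and 28.2 to 28.8 CPM. The endothelial list had 0 of 2 and the fibroblast list 1 of 3 (COL1A1), the latter with sums of 3.01 to 3.84 CPM and 2.77 to 3.01 CPM. The part of these levels in the results was not tested.

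Replication transcripts were lower after DDX17 knockdown. Together the 46 genes gave 2607, 2883 and 2862 CPM in the siCtrl libraries and 2080, 2012 and 2007 CPM in the siDDX17 libraries, so the groups did not overlap. At an adjusted p under 0.05, 29 of the 46 fell (63.0%), against 24.3% of all tested genes, and 1 of the 46 rose (2.17%), against 24.5%. Among the 9166 tested genes with at least the mean count of CDC7, which are covered at least that well, 31.9% fell and 25.8% rose. The median log2 fold change of the 46 was -0.35, with 42 of 46 below 0. Over all tested genes it was 0.0051, with 49.4% below 0.

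The changes were modest in size. With the limits in the study's methods, p under 0.01 and a fold over 1.5, 13 of the 46 were lower (28.3%), against 8.03% of all tested genes, and 0 were higher, against 11% (at an unadjusted p under 0.05 with no fold limit, GINS3 and GINS4 were higher). Under these limits 1254 tested genes were lower and 1713 higher here. The paper reports fewer in each direction, so these calls are not the study's own. With an adjusted p under 0.05 and a log2 fold over 1, 0 of the 46 passed in either direction, against 2.92% lower and 4.65% higher among all tested genes. In 31 of the 46, every siDDX17 library lay below every siCtrl library, which held for 27.7% of tested genes. The opposite held for GINS3 and GINS4, and for 28.8% of tested genes.

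**Figure D1:**
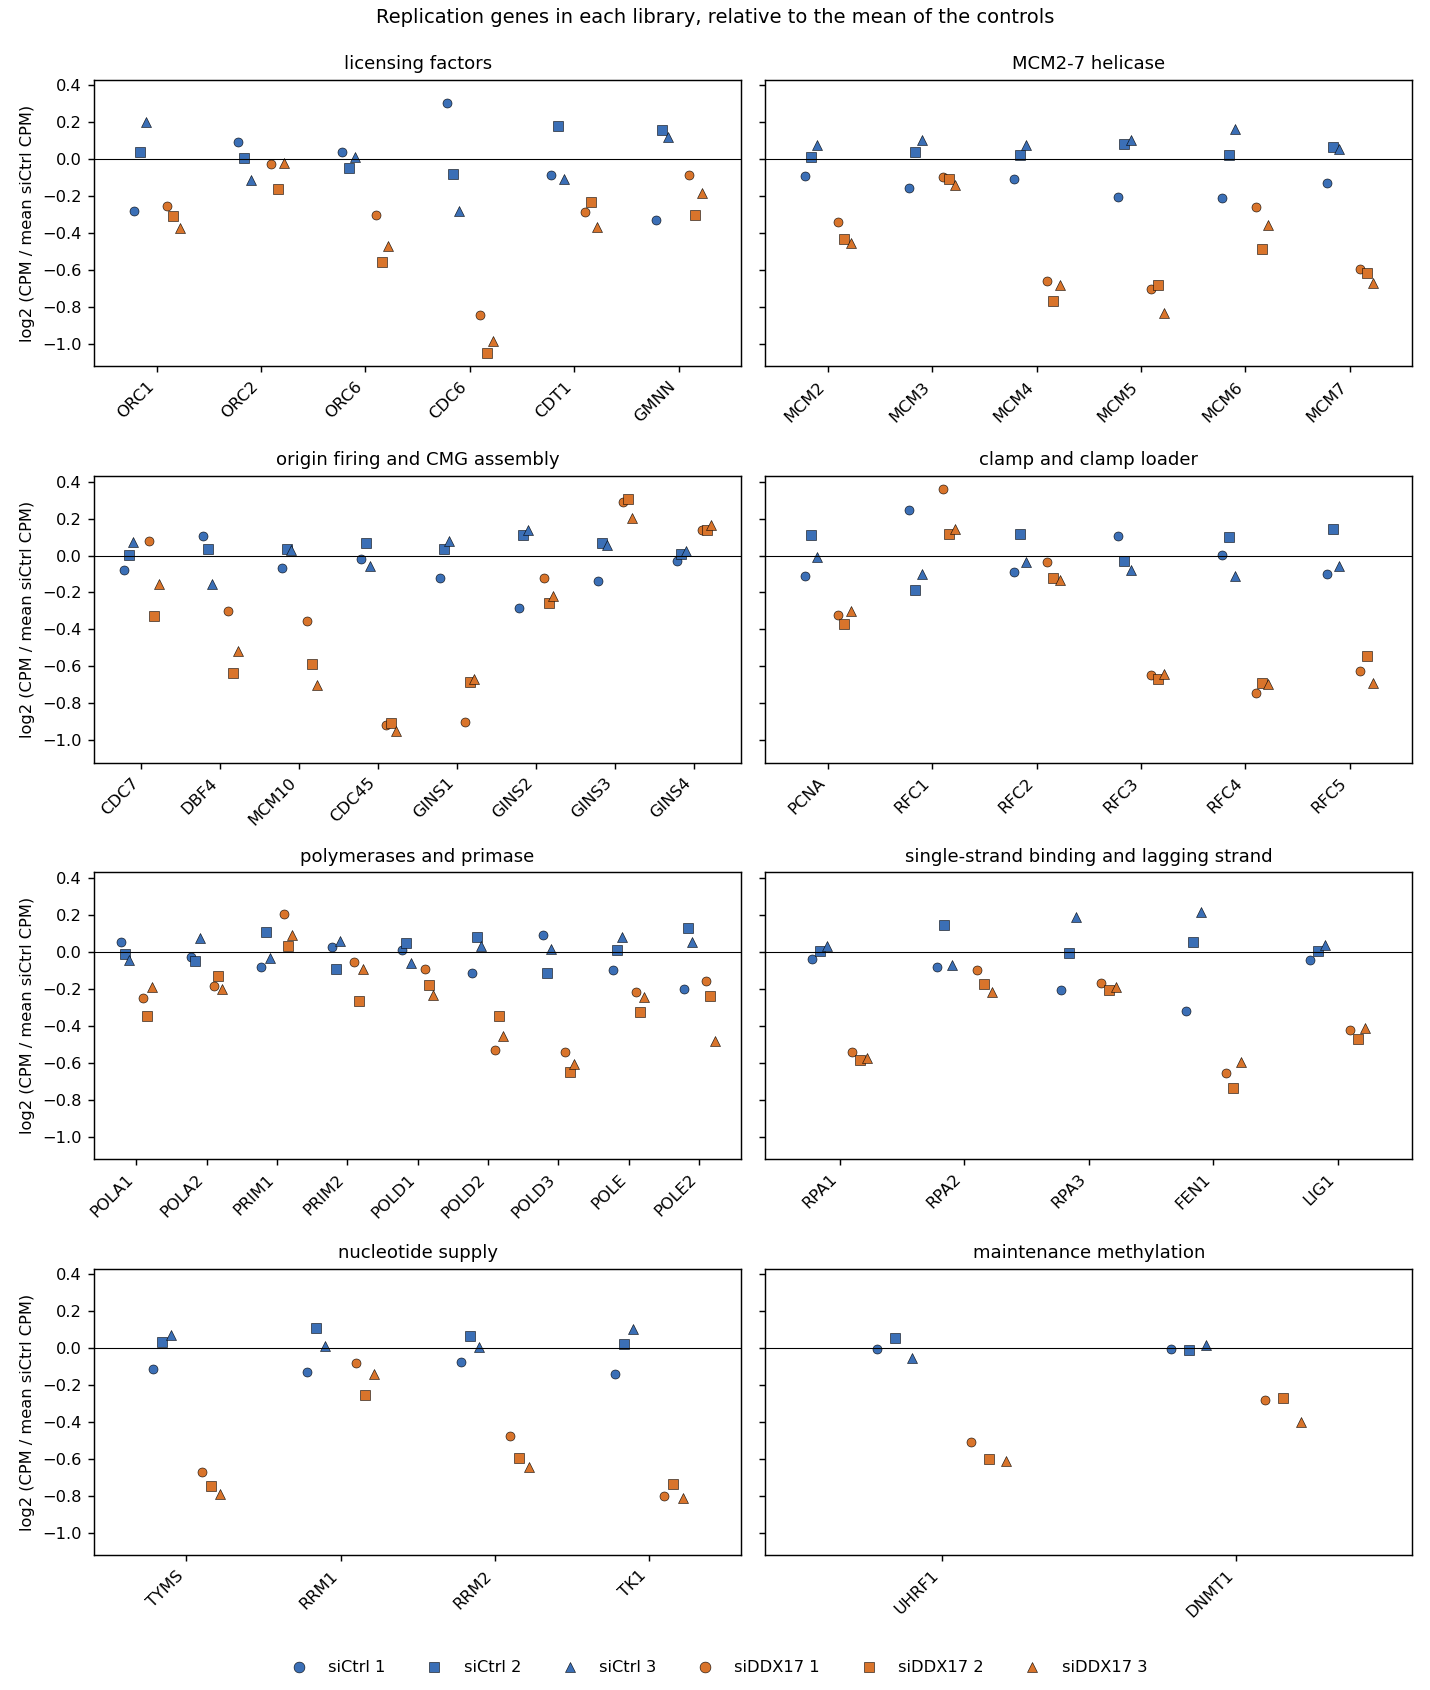
Level of each of the 46 replication genes in each library, as the log2 ratio of its CPM to the mean CPM of the 3 siCtrl libraries (vertical axis), grouped by role; blue points are siCtrl, orange points siDDX17, and shapes give the replicate. The orange points lie below all blue points for 31 genes, and above all of them for GINS3 and GINS4.

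**Figure D2:**
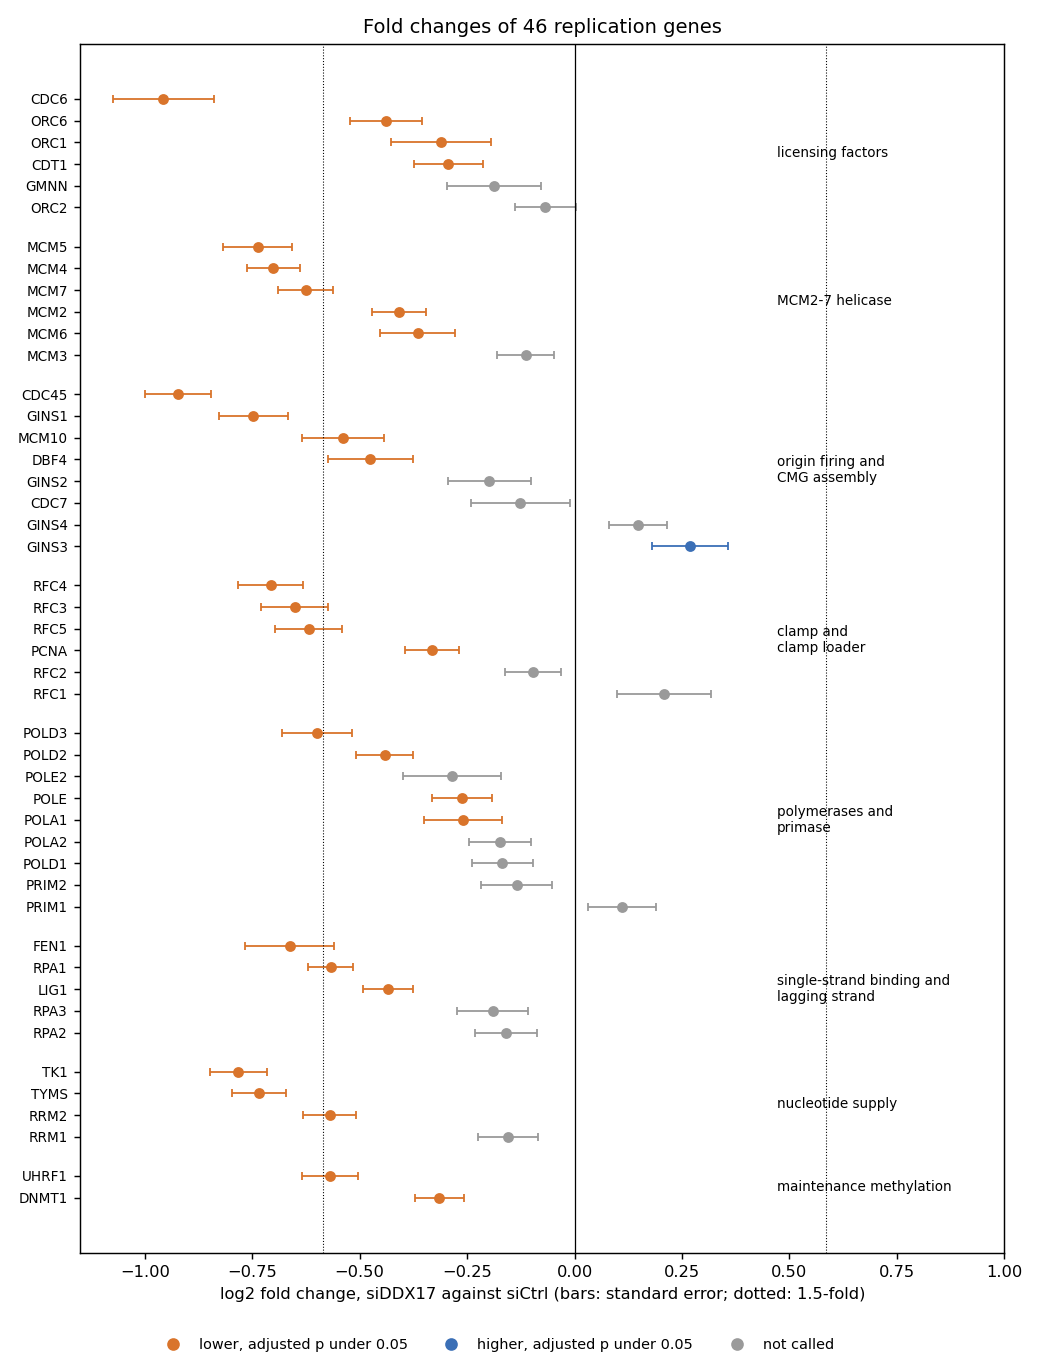
Log2 fold change of siDDX17 against siCtrl for the 46 genes with standard errors as bars, by role; colours give the call at an adjusted p under 0.05 and dotted lines mark a fold of 1.5. CDC6 at -0.96 and CDC45 at -0.92 lie farthest to the left, and GINS3 at 0.27 is the 1 gene called higher.

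Of the 6 licensing factors, 4 fell and 0 rose, and their median log2 fold change was -0.30. Counts in this and the other role groups stand against 24.3% lower and 24.5% higher among all tested genes. CDC6, the ATPase that brings the helicase ring to the origin, was at 79.2, 60.6 and 52.7 CPM in siCtrl and at 35.8, 31.0 and 32.4 CPM in siDDX17. It fell by 48.5% (log2 fold change -0.96, standard error 0.117, adjusted p = 1.9e-05), the lowest estimate among the 46 genes when all libraries were used. The controls themselves spread widely for CDC6, and siCtrl 1 was the highest. Without siCtrl 1 the log2 fold change was -0.78 (adjusted p = 4.48e-13), and CDC45 (-0.94), TK1 (-0.86), MCM5 (-0.84), GINS1 (-0.81), FEN1 (-0.81) and TYMS (-0.80) were then lower than CDC6. ORC6, the smallest subunit of the origin recognition complex, was at 18.9, 17.8 and 18.5 CPM against 14.9, 12.5 and 13.3 CPM (log2 fold change -0.44, standard error 0.0833, adjusted p = 7.04e-04).

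CDT1, the partner of CDC6 in loading, fell less, from 40.7, 48.9 and 40.1 CPM to 35.4, 36.8 and 33.5 CPM (log2 fold change -0.29, adjusted p = 0.00779). ORC1, the subunit that marks the origin in G1, was called lower as well (log2 fold change -0.31, adjusted p = 0.0409). Its groups overlapped, with 8.56, 10.7 and 12.0 CPM in siCtrl and 8.74, 8.42 and 8.05 CPM in siDDX17, and the call was lost in several other settings. Geminin (GMNN), which binds and blocks CDT1 after S phase begins, had the highest FPKM of the group. It stood at 28.8, 40.3 and 39.3 CPM and at 34.0, 29.3 and 31.8 CPM, and did not pass (log2 fold change -0.19, adjusted p = 0.172). ORC2 had a log2 fold change of -0.07 (adjusted p = 0.461). Geminin passed without siCtrl 1, which was its lowest control (log2 fold change -0.34, adjusted p = 3.6e-05).

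Of the 6 genes of the MCM ring, 5 fell, by amounts that differed between subunits of a complex that holds one copy of each. MCM4 was at 114, 125 and 130 CPM in siCtrl and at 77.8, 72.3 and 76.7 CPM in siDDX17 (log2 fold change -0.70, standard error 0.0624, adjusted p = 1.06e-06). MCM5 was at 76.4, 93.6 and 94.7 CPM and at 54.2, 55.1 and 49.6 CPM (log2 fold change -0.74, standard error 0.0803). MCM7 was at 258, 295 and 293 CPM and at 187, 184 and 177 CPM (log2 fold change -0.63, standard error 0.0629). In each of these 3 the groups were far apart, and siCtrl 1 was the lowest control.

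MCM2 fell by 0.41 on the log2 scale (64.0, 68.8 and 71.8 CPM against 53.9, 50.6 and 49.7 CPM) and MCM6 by 0.36 (67.3, 79.2 and 87.2 CPM against 65.2, 55.6 and 60.8 CPM). MCM3 did not pass, at 73.3, 83.9 and 87.8 CPM and at 76.5, 75.8 and 74.1 CPM (log2 fold change -0.11, adjusted p = 0.18). Without siCtrl 1 the log2 fold change of MCM3 was -0.20 (adjusted p = 0.00174). The ratio of MCM5 to MCM3 reads within a library, in which the scaling cancels, was 1.04, 1.12 and 1.08 in siCtrl and 0.709, 0.726 and 0.669 after knockdown. These ratios did not overlap, and 0.1 is the smallest two-sided exact permutation p that 3 libraries against 3 allow. This ratio and the others below were chosen after the values were seen, so their lack of overlap is not a test of a difference.

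Per length, MCM7 stood above the rest of the ring, with a mean FPKM of 70.7 ± 3.98 in siCtrl and 50.1 ± 1.05 in siDDX17 (SD, n = 3 each). MCM4 was next at 26.7 ± 1.46 in siCtrl, then MCM3 at 23.3 ± 1.85, MCM5 at 22.8 ± 2.29, MCM6 at 19.1 ± 2.28 and MCM2 at 17.2 ± 0.853. The neighbours MCM3 and MCM5, and MCM6 and MCM2, lay within their spread. In siDDX17 the order changed: MCM3 at 23.5 ± 0.292 stood above MCM4 at 17.9 ± 0.867, MCM6 at 16.2 ± 1.40, MCM5 at 15.0 ± 0.690 and MCM2 at 14.2 ± 0.599. These FPKM values are set by the authors' transcript models, and an exon of MCM7 overlaps AP4M1 on the other strand over 7.90% of its exonic bases.

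**Figure D3:**
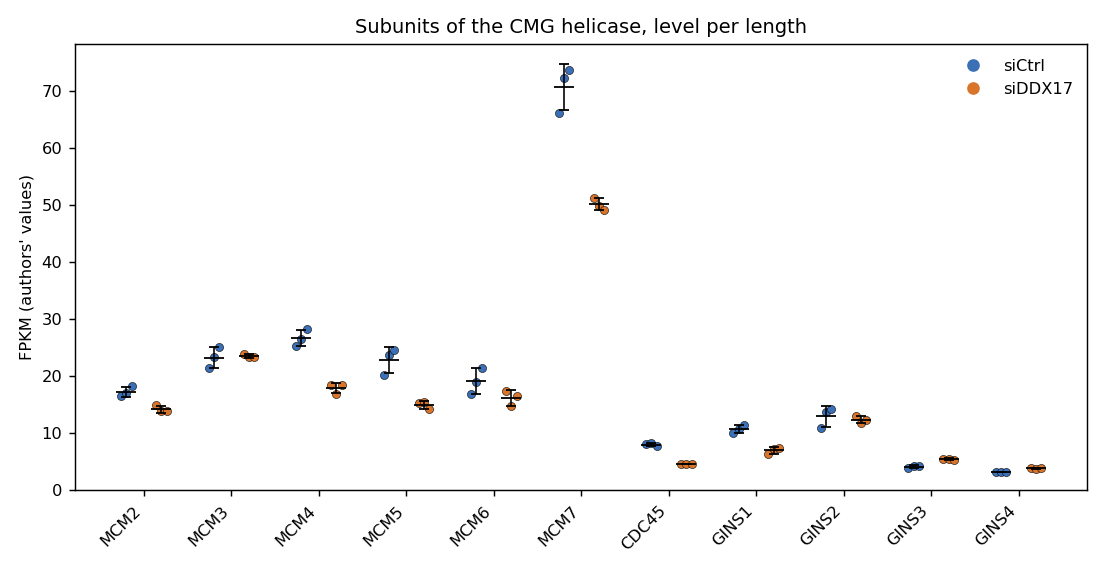
FPKM (vertical axis) of the subunits of the CMG helicase in each library; points are libraries, horizontal marks the means and bars the SD (n = 3). MCM7 lies above all other subunits in both groups, MCM3 stays near 23 in both, and GINS3 and GINS4 are the lowest in siCtrl.

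Of the 8 genes of origin firing and CMG assembly, 4 fell, 1 rose and 3 did not pass. CDC45, which bridges the MCM ring and GINS, was at 18.9, 20.1 and 18.4 CPM in siCtrl and at 10.1, 10.2 and 9.89 CPM in siDDX17, with little spread in either group. It fell by 47.25% (log2 fold change -0.92, standard error 0.0772, adjusted p = 5.88e-07). MCM10, needed to activate the assembled helicase, was at 15.6, 16.8 and 16.8 CPM and at 12.8, 10.9 and 10.1 CPM (log2 fold change -0.54, adjusted p = 3.95e-04). DBF4, the activating subunit of the CDC7 kinase, fell from 19.7, 18.8 and 16.4 CPM to 14.9, 11.8 and 12.8 CPM (log2 fold change -0.48, adjusted p = 0.00147). The kinase CDC7 itself had a log2 fold change of -0.13 (adjusted p = 0.39).

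The 4 GINS genes, whose products form 1 complex with one copy of each, went different ways. GINS1 was at 35.1, 39.1 and 40.2 CPM in siCtrl and at 20.4, 23.7 and 24.0 CPM in siDDX17 (log2 fold change -0.75, standard error 0.0805, adjusted p = 5.96e-06). GINS2, at 31.1, 40.9 and 41.7 CPM and at 34.8, 31.7 and 32.6 CPM, did not pass (log2 fold change -0.20, adjusted p = 0.107). GINS3, named after its values were seen, was at 9.81, 11.3 and 11.2 CPM and rose to 13.2, 13.4 and 12.4 CPM (log2 fold change 0.27, standard error 0.0876, adjusted p = 0.0215). GINS4 was at 18.6, 19.1 and 19.4 CPM and at 20.9, 21.0 and 21.4 CPM, with groups apart but an adjusted p of 0.0896 (log2 fold change 0.15).

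The ratio of GINS1 to GINS3 reads was 3.58, 3.45 and 3.58 in the siCtrl libraries and 1.55, 1.78 and 1.93 in the siDDX17 libraries, a change from 3.54 ± 0.0759 to 1.75 ± 0.191 (SD, n = 3 each). The call for GINS3 alone was weaker: without siCtrl 1 its log2 fold change was 0.19 (adjusted p = 0.0689), and the call was lost too when siDDX17 1 or siDDX17 2 was left out. GINS3 shares 10.92% of its exonic bases with a long noncoding RNA on the other strand, at 1.555 CPM on average, and whether the counting used strand is not given in the sources used here.

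Of the 6 clamp and clamp loader genes, 4 fell and 0 rose. PCNA, the sliding clamp, had the highest FPKM of all 46 genes, with a mean of 143.3 ± 7.69 in siCtrl and 124.7 ± 4.52 in siDDX17 (SD, n = 3 each). It was at 214, 249 and 229 CPM and at 184, 178 and 187 CPM (log2 fold change -0.33, standard error 0.0628, adjusted p = 6.92e-04). The small loader subunits RFC3, RFC4 and RFC5 fell by nearly the same amount, with log2 fold changes of -0.65, -0.71 and -0.62 and standard errors of 0.0751 to 0.0786. RFC4 was at 27.6, 29.4 and 25.4 CPM in siCtrl and at 16.4, 17.1 and 17.0 CPM in siDDX17. RFC3 was at 20.4, 18.6 and 18.0 CPM and at 12.1, 12.0 and 12.2 CPM, and RFC5 at 34.9, 41.4 and 36.1 CPM and at 24.3, 25.7 and 23.2 CPM.

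RFC2, a further small subunit, had a log2 fold change of -0.10 (adjusted p = 0.24). RFC1, the large subunit that makes the loader specific for PCNA, was at 20.6, 15.2 and 16.2 CPM in siCtrl and at 22.3, 18.8 and 19.1 CPM in siDDX17 (log2 fold change 0.21, adjusted p = 0.132). Its groups overlapped through siCtrl 1, and without that library it passed as higher (log2 fold change 0.34, adjusted p = 9e-04). The ratio of RFC4 to RFC1 reads was 1.34, 1.93 and 1.57 in siCtrl and 0.738, 0.907 and 0.886 in siDDX17, groups that did not overlap.

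The polymerases were the group with the smallest median log2 fold change, at -0.26, and 4 of its 9 genes fell. POLD3, an accessory subunit of polymerase delta, was at 19.8, 17.2 and 18.8 CPM in siCtrl and at 12.8, 11.8 and 12.2 CPM in siDDX17 (log2 fold change -0.60, standard error 0.0812, adjusted p = 4.56e-05). POLD2, the subunit that joins POLD3 to the catalytic core, was at 169, 193 and 187 CPM and at 127, 144 and 134 CPM (log2 fold change -0.44, adjusted p = 1.19e-04). POLD1, the catalytic subunit of the same enzyme, was at 25.2, 25.8 and 23.9 CPM and at 23.4, 22.1 and 21.2 CPM, and did not pass (log2 fold change -0.17, adjusted p = 0.0664). Per length, POLD2 had a mean FPKM of 72.9 ± 3.54 in siCtrl against 6.45 ± 0.233 for POLD1.

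POLE, the catalytic subunit of polymerase epsilon, fell from 31.6, 34.0 and 35.8 CPM to 29.0, 27.0 and 28.6 CPM (log2 fold change -0.26, adjusted p = 0.00668). POLA1, the catalytic subunit of polymerase alpha, had the same estimate of -0.26 (adjusted p = 0.0285) from lower levels, 10.4, 9.96 and 9.71 CPM against 8.43, 7.90 and 8.80 CPM. POLA2, PRIM2 and POLE2, accessory subunits of these enzymes, had log2 fold changes of -0.17, -0.13 and -0.28 and did not pass. PRIM1, the catalytic primase subunit, had a log2 fold change of 0.11 (adjusted p = 0.264). PRIM1 shares 4.201% of its exonic bases on the same strand with NACA, which is far more abundant at 702.9 CPM.

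Of the 5 genes for single-strand binding and the lagging strand, 3 fell. RPA1, the largest subunit of the protein that coats single-stranded DNA, was at 149, 154 and 157 CPM in siCtrl and at 105, 102 and 103 CPM in siDDX17 (log2 fold change -0.57, standard error 0.0530, adjusted p = 1.63e-06). Its partners RPA2 and RPA3 did not pass, with log2 fold changes of -0.16 (adjusted p = 0.0833) and -0.19 (adjusted p = 0.0721). FEN1, the nuclease that trims Okazaki fragments, was at 69.0, 89.4 and 100.0 CPM and at 54.6, 51.6 and 57.0 CPM (log2 fold change -0.66, standard error 0.104, adjusted p = 1.59e-04). LIG1, the ligase that seals them, was at 46.3, 47.9 and 48.9 CPM and at 35.6, 34.4 and 35.8 CPM (log2 fold change -0.43, adjusted p = 4.18e-05). FEN1 had the wider spread among controls, with siCtrl 1 the lowest, and its groups still did not overlap. It shares 2.229% of its exonic bases on the same strand with FADS2, which was more abundant at 460.3 CPM.

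Of the 4 nucleotide supply genes, 3 fell, and their median log2 fold change of -0.65 was the lowest of the 8 role groups. TK1, the S-phase thymidine kinase, was at 154, 173 and 182 CPM in siCtrl and at 97.3, 102 and 96.7 CPM in siDDX17 (log2 fold change -0.78, standard error 0.0659, adjusted p = 6.23e-07). TYMS, thymidylate synthase, was at 102, 113 and 116 CPM and at 69.2, 65.5 and 63.7 CPM (log2 fold change -0.73, standard error 0.0630, adjusted p = 7.43e-07). TYMS overlaps ENOSF1 on the other strand over 39.94% of its exonic bases, and ENOSF1 was at 26.61 CPM on average. RRM2, the subunit of ribonucleotide reductase whose level rises in S phase, was at 115, 127 and 122 CPM and at 86.8, 80.0 and 77.4 CPM (log2 fold change -0.57, adjusted p = 6.7e-06). RRM1, the large subunit of that enzyme, did not pass (log2 fold change -0.16, adjusted p = 0.0852).

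Both maintenance methylation genes fell. UHRF1, which reads half-methylated DNA behind the fork, was at 37.6, 39.1 and 36.4 CPM in siCtrl and at 26.5, 24.9 and 24.7 CPM in siDDX17 (log2 fold change -0.57, standard error 0.0653, adjusted p = 1.03e-05). DNMT1, the methyltransferase it recruits, was at 66.9, 66.6 and 68.1 CPM and at 55.4, 55.8 and 50.9 CPM (log2 fold change -0.31, standard error 0.0577, adjusted p = 5.44e-04). The groups were apart for both genes.

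Of the 16 genes that did not pass, 13 had a log2 fold change below 0. One control library weighed on these counts. siCtrl 1 was the lowest of the 3 controls for 30 of the 46 genes and the highest for 8, whereas over all tested genes it was the lowest in 38.1% and the highest in 39.8%. Without it, 39 of the 46 fell, against 27% of the 15996 genes then tested, and 1 rose, against 26.4%, which was then RFC1 in place of GINS3. The common biological coefficient of variation, the spread between replicates that the model estimates, went from 0.0754 to 0.0472 without that library. All 29 genes called lower with every library remained, and GMNN, MCM3, GINS2, RFC2, POLA2, POLD1, POLE2, RPA2, RPA3 and RRM1 were added. The median log2 fold change of the 46 was then -0.43. The call for 24 of the 29 did not depend on any scaling, filter, model or library tried with the same threshold, and the 5 others were ORC1, CDT1, MCM6, POLA1 and POLE.

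Further lists of related genes were set beside the 46. Among 35 other origin and fork genes, 16 fell (45.7%) and 7 rose (20.0%), with a median log2 fold change of -0.19. Over all tested genes, 24.3% fell and 24.5% rose, so the share that rose was not above that of all genes. ASF1B, a histone chaperone at the fork, was at 23.0, 22.0 and 22.3 CPM in siCtrl and at 10.3, 9.11 and 8.70 CPM in siDDX17 (log2 fold change -1.26, standard error 0.0837, adjusted p = 8.03e-08). RECQL4, a helicase of the RecQ family, fell by 0.69 on the log2 scale (adjusted p = 7.08e-05). CLSPN, the checkpoint adaptor claspin, was close to 1 CPM and its estimate of -0.87 (adjusted p = 0.0305) did not hold without siCtrl 2 (-0.50). Those that rose included POLD4, the smallest subunit of polymerase delta, at 79.9, 83.3 and 89.0 CPM in siCtrl and 107, 113 and 109 CPM in siDDX17 (log2 fold change 0.38, adjusted p = 1.22e-04). TIPIN, of the fork protection complex, and NASP, a chaperone for histone H3, rose by 0.35 (adjusted p = 0.014) and 0.34 (adjusted p = 2.45e-04).

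Among 13 other nucleotide supply genes, 7 fell (53.8%) and 0 rose, with a median of -0.21. Among those that fell, CTPS1, which makes CTP, had the largest change (log2 fold change -0.78, adjusted p = 2.58e-06), followed by DTYMK, thymidylate kinase (-0.39), and DCTPP1, a dCTP pyrophosphatase (-0.35). Among 31 S-phase control genes, 22 fell (71.0%) and 1 rose (3.23%), with a median of -0.46. TFDP1, a DNA-binding partner of most E2F proteins, was at 42.1, 43.4 and 46.3 CPM in siCtrl and at 14.5, 14.1 and 14.6 CPM in siDDX17 (log2 fold change -1.61, standard error 0.0682, adjusted p = 1.9e-09). E2F7, an E2F family repressor, and CDK6, a G1 kinase, fell by 1.41 and 1.25 on the log2 scale. The list mixes genes that drive S phase with genes that restrain it. CDKN1A, an inhibitor of cell cycle kinases named after its values were seen, had a log2 fold change of -1.12 (adjusted p = 1.26e-08). E2F5, the 1 gene called higher, had a log2 fold change of 0.26 (adjusted p = 0.0364).

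Of 20 mitosis genes, 19 fell (95.0%) and 0 rose, with a median log2 fold change of -0.63. CDK1, the kinase that drives mitosis, was at 55.7, 58.7 and 58.9 CPM in siCtrl and at 27.4, 23.7 and 22.9 CPM in siDDX17 (log2 fold change -1.23, adjusted p = 3.19e-08). TPX2, a spindle assembly factor, and AURKB, the kinase of the chromosomal passenger complex, fell by 0.92 and 0.89. The difference between this median and the -0.35 of the replication genes was not tested. All these lists share the same 6 libraries with the 46 genes.

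**Figure D4:**
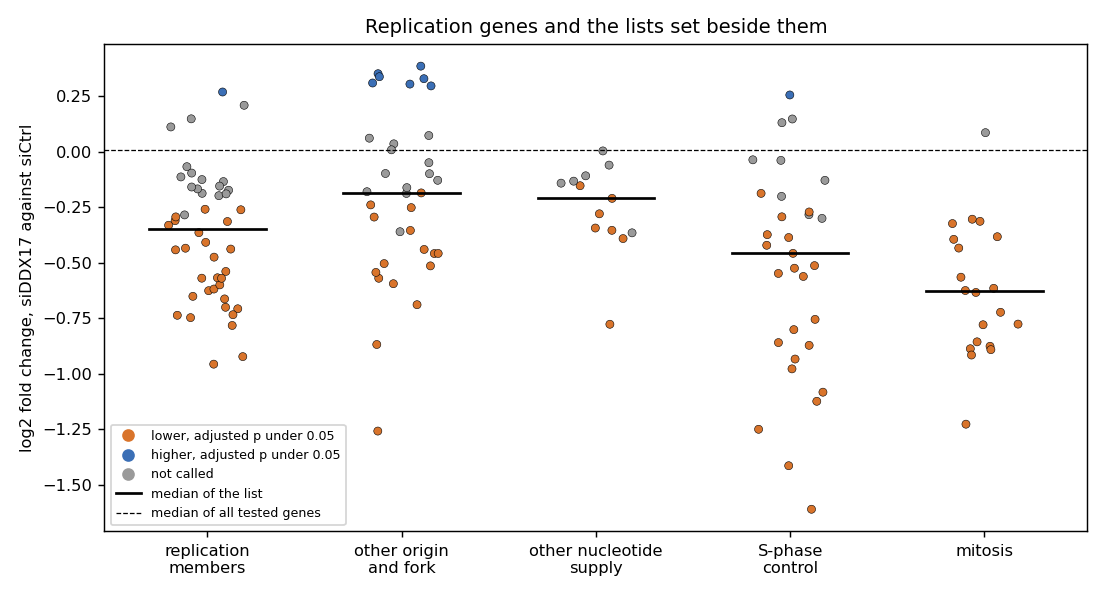
Log2 fold change of siDDX17 against siCtrl (vertical axis) for the 46 replication genes and 4 lists set beside them; points are genes, coloured by the call at an adjusted p under 0.05, solid lines are list medians and the dashed line is the median of all tested genes. The medians run from -0.19 for other origin and fork genes to -0.63 for mitosis genes, with -0.35 for the replication genes.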

How the data were processed

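The 6 libraries were polyA RNA made strand-specific with dUTP and, per the labels and methods, mapped by the authors to GRCh38 with TopHat2, allowing 4 mismatches and discarding reads shorter than 16 nt. The counting program, the annotation release and the use of strand are not given in the sources used here. The authors deposited raw read counts per gene and FPKM values for each library, without pooling. Counts were tested with the quasi-likelihood test of edgeR 4.0.16 (filterByExpr, TMM scaling, Benjamini-Hochberg adjustment over 15615 genes), with no covariate. Standard errors were derived from the log2 fold change and its F statistic. CPM values are TMM-scaled. On simulated counts with 15615 genes, the test recovered 69 of 100 genes changed by 1.5-fold and 87 of 100 changed by 2-fold, with 12 false calls. Only 200 genes were changed there, up and down alike, whereas 24.3% were called lower and 24.5% higher in the data. These rates therefore need not hold for the data. Groups came from the sample titles. The members and lists were chosen with earlier results of these data known. Described members were those past an adjusted p of 0.05 and a fold of 1.5. Others were added by size up to 4 per role group, with the highest by FPKM. Lists set beside the members gave up to 3 genes per direction. Other genes were named after their values were seen. Alternatives were RLE, upper quartile and library size scaling, DESeq2 1.42.0, no filter, at least 10 counts in every library, a replicate block, limma 3.58.1 on log2(FPKM + 1) and log2(FPKM + 0.1), leaving out each library, and both fold limits. Positions came from GENCODE 44 on GRCh38, and promoters from RefSeq.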

Additional observations from a re-analysis of the deposited data

How the results depend on the processing

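The count of 29 replication genes lower stayed within 24 to 31 under other scalings, filters and models with all libraries (31 with no low-count filter), and was 13 at p under 0.01 with a fold over 1.5 and 0 at a log2 fold over 1. Shares of all tested genes were obtained only for the main fit, at each call rule, and for the fit without siCtrl 1. Counts at the other settings have no such share beside them, and how far they exceed all genes there is not shown. The count higher was 2 with upper quartile scaling (GINS3 and GINS4), 4 with library size only (GINS3, GINS4, RFC1 and PRIM1), 3 on log2(FPKM + 1) and 3 on log2(FPKM + 0.1), and 0 at both fold limits. Leaving out 1 library gave 27 to 39 lower, 0 to 1 higher (0 without siDDX17 1 or siDDX17 2) and a median log2 fold change of -0.4279 to -0.3327. That median was -0.2231 with library size only, -0.2086 on log2(FPKM + 1) and -0.2147 on log2(FPKM + 0.1). Library size only moved the median of all genes to 0.1276, and the median of the 46 genes minus it was -0.3507, against -0.3532 with TMM scaling. DDX5 turned from -0.11 to 0.014 with library size only, to 0.019 on log2(FPKM + 1) and to 0.019 on log2(FPKM + 0.1), and was -0.16 and called lower without siCtrl 1. DDX17 stayed between -2.66 and -2.30 throughout. ORC1 lost its call in 11 alternatives, POLA1 in 7, CDT1 and POLE in 3 each, and MCM6 in the 2 on FPKM. On the FPKM scale, 9 and 8 of the 35 other origin and fork genes were lower in place of 16. The share of all tested genes on that scale was not obtained, and it was 24.3% lower in the main fit. An excess of this list over all genes is therefore not shown on FPKM. With the replicate number as a block, 28 were lower and 2 higher (GINS3 and RFC1). Deviations of same-numbered libraries from their group means had correlations of 0.007, 0.0407 and -0.0564 over the tested genes. With 3 libraries per group, these values cannot exclude a pairing, and the titles name none. The causes of these changes were not tested. Values rest on 3 libraries per group of 1 cell line.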
